A study of Mus musculus with 6 samples.

Results

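Ddr1 and Ddr2, the genes of the discoidin domain receptors, were taken from the count table by their Ensembl identifiers, matched to mouse symbols in GENCODE M21. They are 2 of the 57132 genes in the table, and both passed the filter on low counts that left 16263 genes for testing. RNA was measured by mRNA sequencing in 3 libraries of immortalized WT podocytes (Col4a3+/+) and 3 libraries of immortalized AS podocytes (Col4a3-/-), the model of Alport syndrome. Podocytes are the epithelial cells that cover the outer face of the glomerular filter. Both lines came from male mice recorded as 8 weeks old that carry the H-2Kb-tsA58 transgene, whose heat-sensitive T antigen drives growth, and neither received a treatment. The records give growth at 33 °C with 20 U/mL interferon gamma and differentiation for 14 days at 37 °C, while the study's methods give a lower interferon dose and a shorter differentiation. Each genotype is 1 cell line, so genotype and line cannot be told apart. The libraries are numbered as sets 1 to 3 within a line. The sources do not say if the sets came from separate cultures, so p-values measure the spread between these libraries, which may be technical.

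Discoidin domain receptors are receptor tyrosine kinases that bind triple-helical collagen through an extracellular discoidin domain. They exist as dimers before the ligand arrives, and collagen starts a phosphorylation of their intracellular part that is slow to begin and long to last. DDR1 is typical of epithelial cells and binds fibrillar collagens, type IV collagen of basement membranes and type VIII collagen, while DDR2 is typical of mesenchymal cells and binds fibrillar collagens and type X collagen. In the kidney the glomerular basement membrane places type IV collagen directly under the podocyte, and DDR1 is studied there as a collagen sensor in Alport syndrome. The study links DDR1 to fatty acid uptake through CD36, which raises the question of how much RNA of both receptors these lines hold.

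Expression is given as CPM, the count of a gene divided by the TMM-scaled library size and expressed per 1e+06 counts. The libraries held 45417221 to 54290968 counts. For Col4a3, the gene knocked out in the AS line, WT podocytes held 1087 ± 170 CPM and AS podocytes 68.8 ± 12.2 CPM (SD, n = 3 each), and every AS library lay below every WT library. The AS libraries still held 2809, 3146 and 4565 Col4a3 counts. Which part of the gene these reads came from cannot be told from counts per gene. Markers of the labelled cell type were measured in part. Synpo, which encodes the podocyte actin protein synaptopodin, was at 803 ± 44.2 and 526 ± 30.8 CPM (SD, n = 3 each) in WT and AS podocytes. Of the 8 podocyte markers tested, 5 fell in AS podocytes while 2 rose (87.5% called, against 40.1% of all genes tested). Summed over the 10 podocyte markers, the level was 1247 to 1491 CPM in WT and 997 to 1098 CPM in AS libraries. The 9 epithelial markers summed to 226 to 296 CPM in WT and 219 to 236 CPM in AS libraries, most of it Pax8, while Esrp1 was at 0 throughout. The 9 mesenchymal markers summed to 9046 to 11440 CPM in WT and 10110 to 11280 CPM in AS libraries, most of it Acta2 and Vim, with Lum at 0 throughout. The endothelial markers summed to at most 1.24 CPM (Tie1 at 0) and the leukocyte markers to at most 15.0 CPM (Adgre1 at 0) in any library. Of the 3 leukocyte markers tested, Csf1r fell and the others did not pass the test (33.3% called, against 40.1% of all genes tested).

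Ddr1 was abundant in both lines and lower in AS podocytes, whereas Ddr2 was close to the low end of the genes tested. Because one receptor exceeded the other by such a margin, reads wrongly given to Ddr2 would matter for its value, and the sequence shared by the transcripts was therefore measured in GENCODE M21. The longest exact run shared by any of the 12 Ddr1 transcripts and any of the 6 Ddr2 transcripts was 20 bases. It lies in the part that encodes the kinase domain, at bases 2032 to 2051 of the longest Ddr1 coding sequence and at bases 1897 to 1916 of the longest Ddr2 coding sequence, counted from the start codon. These stretches are printed to show the longest run that both genes have in common, 5′ to 3′ in the sense of the mRNA, with the shared run in capitals and 20 bases on either side.
Ddr1: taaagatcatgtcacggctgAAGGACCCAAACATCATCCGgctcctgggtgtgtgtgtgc
Ddr2: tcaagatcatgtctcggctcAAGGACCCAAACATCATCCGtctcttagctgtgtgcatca
In an ungapped window of 100 coding bases, at most 87 bases were identical between both genes, and no window reached 90. How the authors' counting treated reads that match more than 1 gene is not given in the sources used here.

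Ddr1 (ENSMUSG00000003534.18, chromosome 17) was at 855, 734 and 748 CPM in WT sets 1 to 3 and at 531, 514 and 467 CPM in AS sets 1 to 3. All AS libraries lay below all WT libraries, and the gap between the lines was wider than the range within either line. The mean was 779 ± 66.1 CPM for WT podocytes and 504 ± 33.1 CPM for AS podocytes (SD, n = 3 each). The log2 fold change was -0.63 (standard error 0.080, 95% interval -0.81 to -0.45, adjusted p = 0.000260 by edgeR's quasi-likelihood test), which is 0.647 times the level of WT podocytes. These values rest on 112228 counts in WT and 76041 counts in AS podocytes, so that the counting error of a single library was far smaller than the spread between libraries. Of all genes tested, 19.6% were called lower and 20.4% higher in AS podocytes, 40.1% in either direction, and in 52.3% the lines did not overlap. A fold change at least as large as that of Ddr1 in either direction was seen in 23.5% of the genes tested. The fall in Ddr1 was thus clear against the spread between libraries and moderate in size against the other genes of these lines. The summed podocyte markers were likewise lower in every AS library than in any WT library, and their part in the Ddr1 value was not tested. In bulk RNA, fewer cells that express a gene and less of its RNA per cell cannot be told apart.

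Ddr2 (ENSMUSG00000026674.10, chromosome 1) was at 1.08, 2.35 and 2.47 CPM in WT sets 1 to 3 and at 2.00, 2.45 and 2.62 CPM in AS sets 1 to 3. The lines overlapped, and WT set 1 lay apart from the other 5 libraries. That library held 55 Ddr2 counts, against 90 to 144 in the others, and its counting interval of 0.817 to 1.41 CPM (exact Poisson, 95%) did not reach the lowest bound of any other library, 1.61 CPM in AS set 1. The mean was 1.97 ± 0.768 CPM for WT podocytes and 2.36 ± 0.320 CPM for AS podocytes (SD, n = 3 each). The log2 fold change, 0.26 with a standard error of 0.298, did not pass the threshold (adjusted p = 0.520, edgeR), and its 95% interval ran from -0.40 to 0.93, or from 0.756 to 1.91 times the WT level. The interval therefore holds both a fall and a rise of appreciable size. Without WT replicate 1 the log2 fold change was -0.031 (adjusted p = 0.927, edgeR). In addition, the gene 3110045C21Rik lies on the opposite strand and shares 90 exon bases with Ddr2 in the annotation. It held 15, 18 and 7 counts in WT and 27, 62 and 47 counts in AS libraries and rose in AS podocytes (log2 fold change 1.67, adjusted p = 0.0132, edgeR). Since no source says whether reads were counted by strand, reads of both genes within the 90 shared bases cannot be told apart, and the Ddr2 value is uncertain to that extent. The corresponding gene opposite Ddr1, Gm4577, held 53 counts over all 6 libraries.

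**Figure D1:**
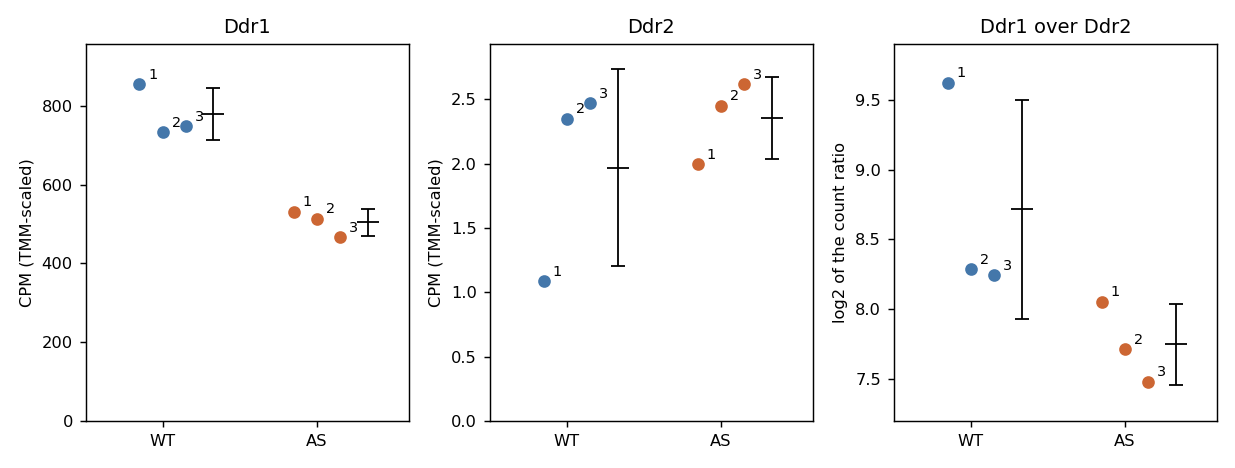
Level of Ddr1 (left) and Ddr2 (middle) in CPM, and log2 of the ratio of their counts (right), in each WT and AS library. Points are libraries with their set number, and bars give the mean and SD of 3 libraries. Ddr1 is lower in every AS library (467 to 531 CPM) than in any WT library (734 to 855 CPM), Ddr2 overlaps between the lines, and WT set 1 holds the highest Ddr1, the lowest Ddr2 and the highest ratio.

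The balance of both receptors was examined within each library, where no scaling of the libraries enters. Ddr1 had 788, 312 and 303 counts for each Ddr2 count in WT sets 1 to 3 and 266, 210 and 178.5 in AS sets 1 to 3. Divided by the length of the exons in M21 (4774 bases for Ddr1 and 9264 for Ddr2), the ratio of the levels was 1529, 606 and 588 in WT and 516, 407 and 346 in AS libraries. Ddr1 RNA was therefore in excess by at least 346 times in every library, and the AS libraries all lay below the WT libraries. The mean per-length ratio was 908 ± 538 for WT libraries and 423 ± 85.9 for AS libraries (SD, n = 3 each). On the log2 scale the ratio of counts was 8.72 ± 0.784 for WT and 7.75 ± 0.289 for AS libraries (SD, n = 3 each), a difference of -0.97 and 0.511 times the WT ratio. The exact permutation test, two-sided, gave p = 0.10, the smallest that 3 against 3 libraries can give. The size of the difference rested on WT set 1, without which it was -0.52. Of both genes' counts together, Ddr2 made up 0.127% to 0.329% in WT and 0.375% to 0.557% in AS libraries.

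In both lines the library of set 1 had the highest Ddr1 and the lowest Ddr2. Set 1 also held the smallest share of mitochondrial counts within each line, at 0.882% in WT (1.39% and 1.68% in the others) and 1.30% in AS podocytes (1.65% and 2.02% in the others). The part of this difference between libraries in the values of Ddr1 and Ddr2 was not tested.

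To see where the receptors stand in their own family, both were ordered by CPM per kilobase of exon among 58 receptor tyrosine kinases. Ddr1 stood first by the mean over all 6 libraries, at 134 CPM per kilobase, directly before Axl, a receptor for the phosphatidylserine-bridging ligand Gas6, at 133.5 CPM per kilobase. The order of these neighbours differed between the lines. In WT podocytes Ddr1 was at 163 ± 13.8 and Axl at 128.5 ± 6.65 CPM per kilobase (SD, n = 3 each), and in AS podocytes Ddr1 was at 106 ± 6.94 and Axl at 138.5 ± 0.255 CPM per kilobase (SD, n = 3 each). Every WT library held more Ddr1 than any library held Axl, and every AS library held less. Axl itself did not pass the test (log2 fold change 0.11, adjusted p = 0.197, edgeR). Epha2, a receptor for membrane-bound ephrin-A ligands, followed at 67.5 CPM per kilobase, then Ryk, a Wnt coreceptor, at 49.1 and Egfr, the receptor of epidermal growth factor, at 48.3 CPM per kilobase. By line, Egfr was at place 4 and Ryk at place 6 in WT, and Ryk at place 4 and Egfr at place 7 in AS podocytes. Egfr fell with a log2 fold change of -0.68 (adjusted p = 2.95e-05, edgeR), close in size to the fall in Ddr1, and Ryk rose by 0.21 (adjusted p = 0.0198, edgeR). Among all 15876 tested genes with a known exon length, 98.9% had a lower level per kilobase than Ddr1 in WT and 98.1% in AS podocytes.

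Ddr2 stood at place 33 of the 58 kinases, with 0.213 ± 0.0829 CPM per kilobase in WT and 0.254 ± 0.0346 CPM per kilobase in AS podocytes (SD, n = 3 each). Its level was above that of 11.6% of the tested genes in WT and of 13.9% in AS podocytes. The next kinase above it was Fgfr4, a receptor of fibroblast growth factors, at 0.404 ± 0.109 CPM per kilobase for WT and 0.113 ± 0.0094 for AS podocytes (SD, n = 3 each), which lay above Ddr2 in WT and below it in AS podocytes. The next below was Ret, the receptor of GDNF family ligands, at 0.112 ± 0.0502 and 0.307 ± 0.0763 CPM per kilobase (SD, n = 3 each). Within every WT library Ddr2 lay above Ret. In AS podocytes Ret lay above Ddr2 in sets 1 and 3 and below it in set 2, so that their order there was not resolved. Ret rose in AS podocytes (log2 fold change 1.46, adjusted p = 0.00979, edgeR). Of the 56 other receptor tyrosine kinases, 43 passed the filter, of which 10 rose, 13 fell and 20 did not pass the test (53.5% called, against 40.1% of all genes tested), with a median log2 fold change of 0.0062 against 0.0061 over all genes tested.

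**Figure D2:**
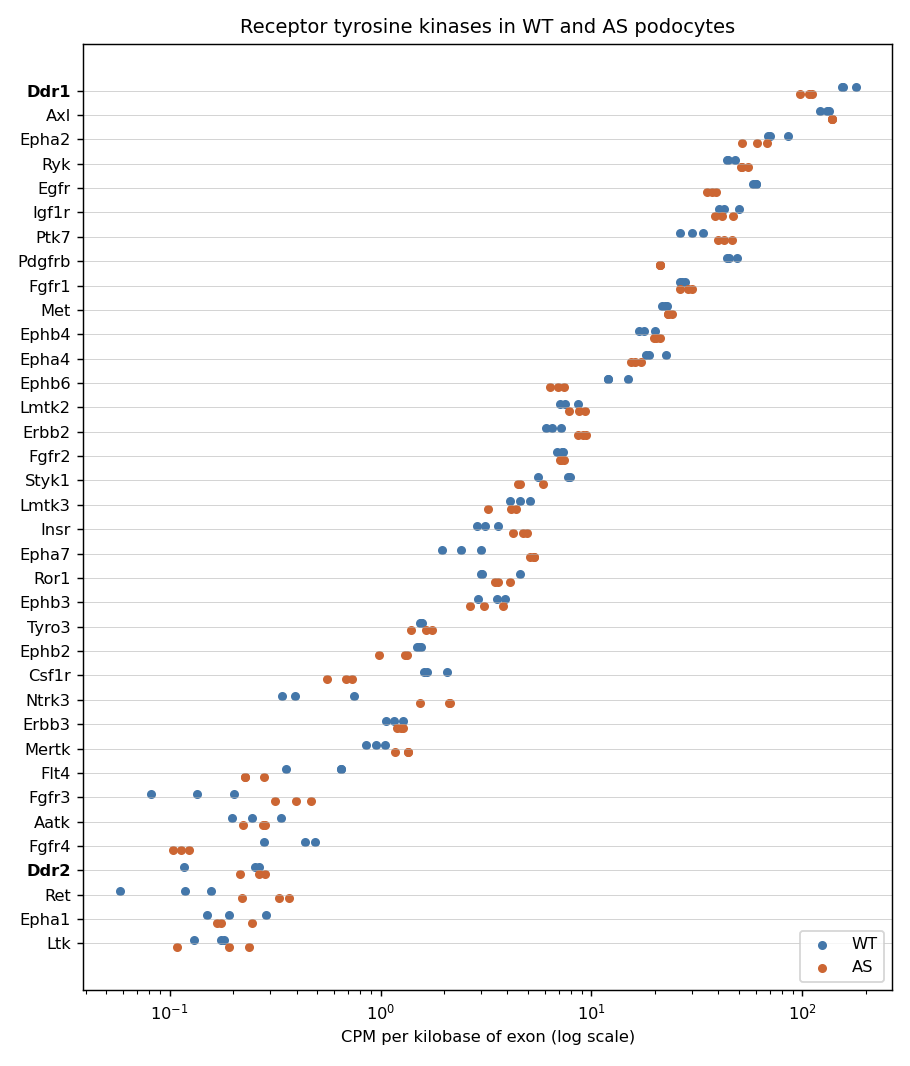
CPM per kilobase of exon (log scale) of the 36 most abundant receptor tyrosine kinases, ordered by their mean over all libraries, with 1 point for each WT (blue) and AS (orange) library. Ddr1 leads in the WT libraries and lies below Axl in the AS libraries, while Ddr2 is found at place 33 with a single low WT library.

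The collagens that these receptors bind were measured next. Of the 9 fibrillar collagen genes, 4 rose, 2 fell and 3 did not pass the test (66.7% called, against 40.1% of all genes tested), with a median log2 fold change of 0.39. Col3a1, the chain of type III collagen, rose from 9.44 ± 1.58 to 198 ± 32.9 CPM (SD, n = 3 each; log2 fold change 4.39, adjusted p = 6.15e-08, edgeR). The chains of type I collagen moved in opposite directions. Col1a1 rose from 24.3 ± 4.15 to 477 ± 99.1 CPM (SD, n = 3 each; log2 fold change 4.29, adjusted p = 1.87e-07, edgeR), and Col1a2 fell from 30.6 ± 7.12 to 0.999 ± 0.299 CPM (SD, n = 3 each; log2 fold change -4.92, adjusted p = 5.14e-07, edgeR). Col5a2 fell from 2155 ± 485 to 240 ± 18.2 CPM (SD, n = 3 each; log2 fold change -3.17, adjusted p = 7.31e-07, edgeR), whereas its partner chain Col5a1, at 1422 ± 71.3 and 1515 ± 105 CPM (SD, n = 3 each), did not pass the test (adjusted p = 0.370, edgeR).

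Among the 12 non-fibrillar ligand genes, 11 passed the filter, of which 4 rose, 5 fell and 2 did not pass the test (81.8% called, against 40.1% of all genes tested). The median log2 fold change was -0.058. Col10a1, the type X collagen ligand of DDR2, was below the filter. Col8a1, a type VIII collagen chain and ligand of DDR1, fell from 2057 ± 145 to 1284 ± 71.3 CPM (SD, n = 3 each; log2 fold change -0.68, adjusted p = 0.000134, edgeR). Col6a1 and Col6a2, chains of the microfibrillar type VI collagen, rose with log2 fold changes of 2.34 and 2.69 (adjusted p = 2.41e-07 and 9.74e-06, edgeR). The less abundant chains of both types moved the other way. Col6a3 fell from 0.780 ± 0.126 to 0.323 ± 0.202 CPM (SD, n = 3 each; log2 fold change -1.29, adjusted p = 0.0452, edgeR). Col8a2 rose from 1.18 ± 0.211 to 3.71 ± 1.31 CPM (SD, n = 3 each; log2 fold change 1.65, adjusted p = 0.00133, edgeR). Col6a3 and Col8a2 were named after their values were seen. Of the 6 type IV collagen genes, Col4a1 and Col4a2 were the most abundant and did not pass the test (adjusted p = 0.765 and 0.163, edgeR). The others were all called. Beside Col4a3, Col4a4 and Col4a6 fell by 0.42 and 0.36 on the log2 scale (adjusted p = 0.0039 and 0.0463, edgeR) and Col4a5 rose by 0.31 (adjusted p = 0.00603, edgeR), these 3 being named after their values were seen. The study, which also required a fold change above 2 in either direction, describes Col4a4 and Col4a5 as unchanged. No fold change threshold was set here. Both lines thus held RNA of abundant DDR1 ligands, and the chains that differed did so in both directions.

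Other receptors for collagen were compared with Ddr1. Of 9 such genes 7 passed the filter, of which 1 rose, 3 fell and 3 did not pass the test (57.1% called, against 40.1% of all genes tested), with a median log2 fold change of 0.072. Itga1, whose integrin α1β1 prefers type IV collagen, fell from 409 ± 66.6 to 255 ± 21.9 CPM (SD, n = 3 each; log2 fold change -0.68, adjusted p = 0.00114, edgeR). Itga11, of the fibrillar collagen integrin α11β1, fell by 1.06 on the log2 scale (adjusted p = 0.00100, edgeR), and Adgrg1, an adhesion G protein-coupled receptor that binds type III collagen, fell from 522 ± 155 to 166 ± 20.98 CPM (SD, n = 3 each; log2 fold change -1.65, adjusted p = 0.000106, edgeR). Mrc2, the endocytic collagen receptor, rose from 15.3 ± 2.40 to 52.2 ± 2.97 CPM (SD, n = 3 each; log2 fold change 1.77, adjusted p = 2.34e-06, edgeR). The shared β1 chain Itgb1 was at 3567 ± 420 and 3839 ± 124 CPM (SD, n = 3 each; adjusted p = 0.406, edgeR). Lair1 and Gp6, receptors of blood cells, were below the filter.

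After activation, DDR1 and DDR2 recruit adaptors through phosphorylated tyrosines. All 16 docking and adaptor genes were tested, of which 5 rose, 3 fell and 8 did not pass (50.0% called, against 40.1% of all genes tested), with a median log2 fold change of 0.078. Shc1, an adaptor that binds phosphorylated DDR1, fell from 200 ± 4.73 to 163 ± 8.66 CPM (SD, n = 3 each; log2 fold change -0.29, adjusted p = 0.00338, edgeR). Ptpn11, the phosphatase SHP-2, was at 422 ± 16.6 and 403 ± 10.7 CPM (SD, n = 3 each) and did not pass the test (adjusted p = 0.393, edgeR). Syk, a kinase typical of blood cells, rose from 2.45 ± 0.233 to 7.84 ± 0.908 CPM (SD, n = 3 each; log2 fold change 1.68, adjusted p = 3.17e-05, edgeR). Pik3r2, a regulatory subunit of phosphoinositide 3-kinase, rose by 0.41 on the log2 scale and the Src family kinase Lyn fell by 0.51 on the log2 scale (adjusted p = 0.000494 and 0.000542, edgeR).

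Proteases and membrane partners of DDR1 were compared next. Of 16 genes 15 passed the filter, of which 8 rose, 4 fell and 3 did not pass the test (80.0% called, against 40.1% of all genes tested), with a median log2 fold change of 0.42. The membrane-type metalloproteinases of this list, which can cleave the DDR1 ectodomain, all rose. Mmp14 rose from 276 ± 14.7 to 427 ± 18.2 CPM (log2 fold change 0.63, adjusted p = 6.31e-05, edgeR), Mmp15 from 48.3 ± 5.29 to 114.5 ± 8.25 CPM (log2 fold change 1.25, adjusted p = 6.42e-06, edgeR) and Mmp16 from 17.6 ± 2.91 to 29.4 ± 1.06 CPM (log2 fold change 0.74, adjusted p = 0.000677, edgeR; SD, n = 3 in all). Adam10, a sheddase of DDR1, fell from 247 ± 13.0 to 199 ± 8.58 CPM (SD, n = 3 each; log2 fold change -0.31, adjusted p = 0.00345, edgeR), and was named after its value was seen. Pard3, a polarity protein, rose by 0.60 on the log2 scale and Myh9, the nonmuscle myosin heavy chain that DDR1 engages, rose by 0.42 from 2846 ± 256 CPM (SD, n = 3; adjusted p = 0.000173 and 0.00349, edgeR). Igf1r, at 744 ± 82.6 and 712 ± 71.1 CPM (SD, n = 3 each), did not pass the test (adjusted p = 0.650, edgeR).

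Cd36, the fatty acid transporter that the study couples to DDR1, was at the limit of detection. It had 2, 1 and 0 counts in WT and 0 counts in every AS library, where 3 counts over the group allow up to 0.0198 CPM, so that no fold change is given. A difference in Cd36 RNA was not detectable at this depth, and that limit covers counting error only.

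Of the 16 genes reported to lie downstream of the receptors, 15 passed the filter, of which 6 rose, 4 fell and 5 did not pass the test (66.7% called, against 40.1% of all genes tested), with a median log2 fold change of 0.12. Of its 5 transcription factors of mesenchymal genes 2 rose, Twist1 from 7.85 ± 0.431 to 23.6 ± 0.869 CPM (SD, n = 3 each; log2 fold change 1.59, adjusted p = 1.05e-06, edgeR) and Snai2 from 11.1 ± 2.37 to 22.1 ± 1.39 CPM (SD, n = 3 each; log2 fold change 1.00, adjusted p = 0.000499, edgeR). Snai1, Runx2 and Zeb1 did not pass, with log2 fold changes of -0.71, -0.14 and 0.12 (adjusted p = 0.0596, 0.225 and 0.0903, edgeR). Mmp2, a type IV collagenase, rose from 824 ± 91.5 to 1051 ± 79.2 CPM (SD, n = 3 each; log2 fold change 0.35, adjusted p = 0.0136, edgeR). Lox, the lysyl oxidase that cross-links collagen, fell from 1240 ± 238 to 753 ± 43.0 CPM (SD, n = 3 each; log2 fold change -0.72, adjusted p = 0.00176, edgeR). Of the 3 Notch pathway genes in this list, the ligand Jag1 fell from 547 ± 48.8 to 302 ± 14.2 CPM (SD, n = 3 each; log2 fold change -0.85, adjusted p = 3.12e-05, edgeR) and the target Hey1 fell from 2.27 ± 0.245 to 0.875 ± 0.110 CPM (SD, n = 3 each; log2 fold change -1.37, adjusted p = 0.00103, edgeR), while the target Hes1 did not pass the test (log2 fold change 0.17, adjusted p = 0.423, edgeR). The receptor Notch1, of the list of membrane partners, rose with a log2 fold change of 1.42 (adjusted p = 0.00193, edgeR). Hes1 and Notch1 were named after their values were seen, as were the 3 transcription factors that did not pass.

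**Figure D3:**
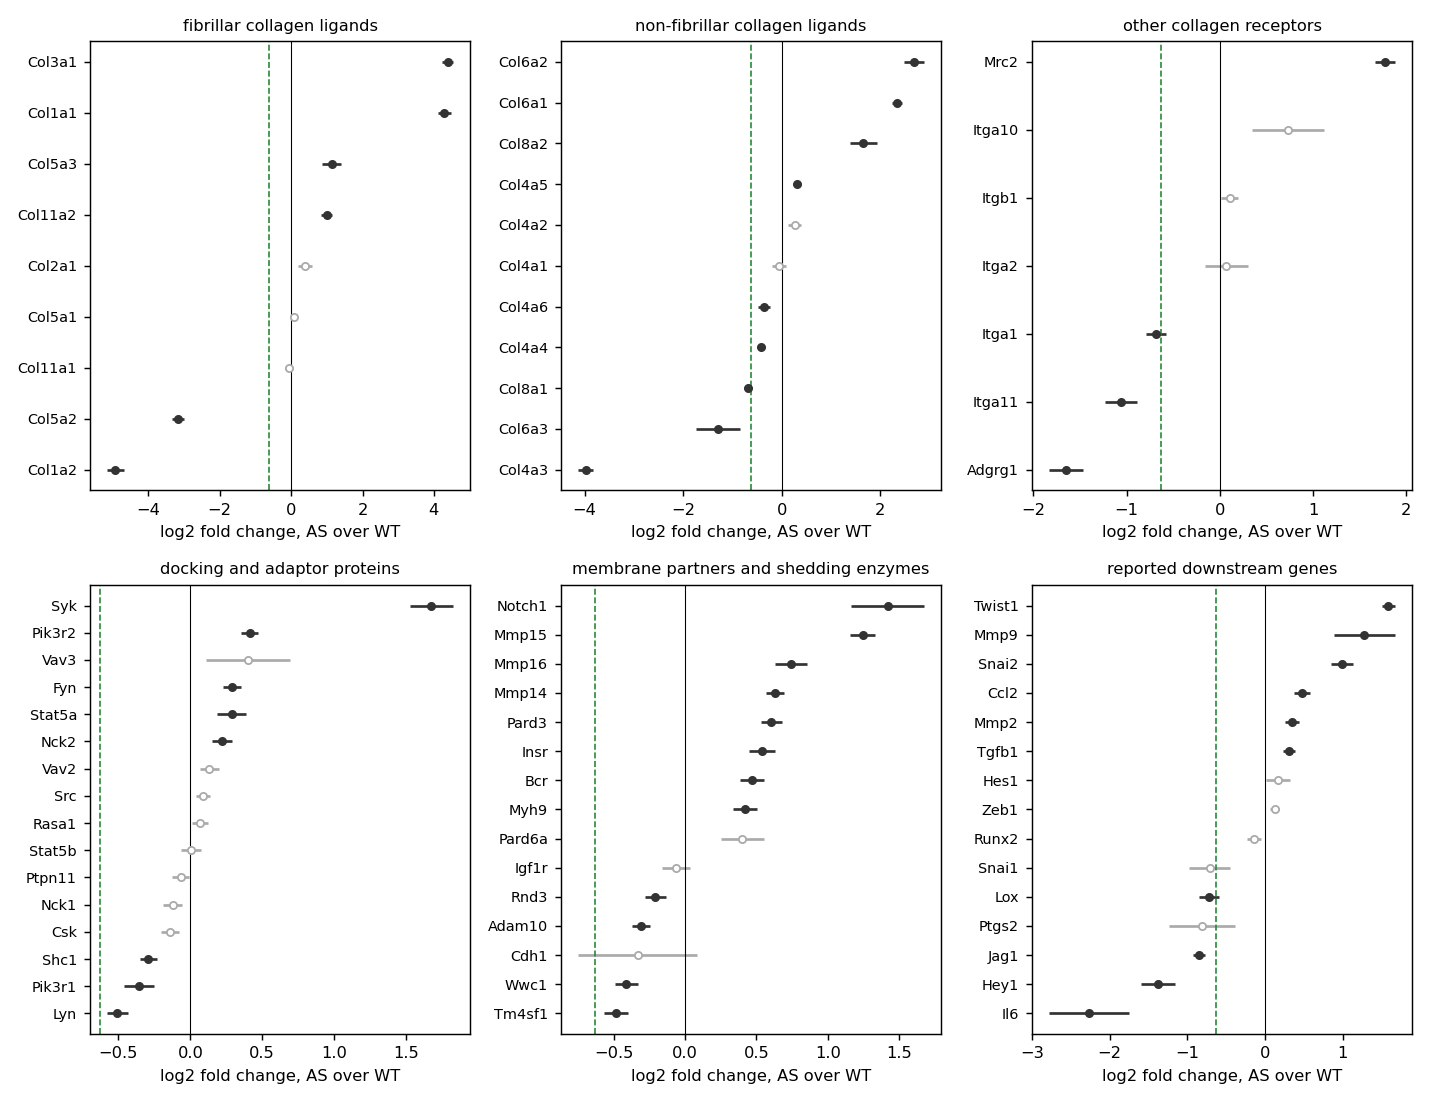
Log2 fold change of AS over WT with its standard error for the tested genes of 6 lists around the receptors. Filled points passed an adjusted p of 0.05 in edgeR's quasi-likelihood test and open points did not, and the dashed line marks the Ddr1 value of -0.63. Ligand genes spread widely in both directions (from -4.92 for Col1a2 to 4.39 for Col3a1), while Mmp14, Mmp15 and Mmp16 lie to the right of 0.

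The pattern of each receptor over the 6 libraries was set against 12771 other genes with a mean of at least 1 CPM by Pearson's correlation of log2 CPM. In all, 1778 genes had a correlation with Ddr1 above 0.9. The 3 closest were Litaf (0.9994), a lysosomal and late endosomal protein, Acadsb (0.999), an acyl-CoA dehydrogenase of mitochondrial branched-chain catabolism, and Ephb6 (0.9988), a receptor tyrosine kinase without kinase activity. Litaf was at 443, 379 and 382 CPM in WT and 271, 262 and 243 CPM in AS libraries. Like Ddr1 it was highest in WT set 1, which its choice by likeness largely fixes. For Ddr2 158 genes were above 0.9, and the 3 closest were Mtg2 (0.988), a GTPase of mitochondrial ribosome assembly, Ust (0.985), a sulfotransferase of chondroitin and dermatan sulfate, and mt-Rnr2 (0.984), the large mitochondrial ribosomal RNA. Like Ddr2, each of these 3 genes was lowest in WT set 1, which their choice by likeness largely fixes. Between Ddr1 and Ddr2 themselves the correlation was -0.597 over the 6 libraries, which share the line and the set.

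The genes next to each receptor were examined to see whether the difference in Ddr1 was shared with its surroundings. On chromosome 17, whose 759 tested genes had a median log2 fold change of 0.0037, 2 of the 10 nearest tested genes fell, 0 rose and 8 did not pass the test, against 40.1% of all genes called in either direction. Their median was -0.13. The genes directly beside Ddr1 were Gtf2h4, a subunit of the transcription factor TFIIH, with a log2 fold change of 0.31 (adjusted p = 0.0617, edgeR) and Ier3, an immediate early gene, with -0.11 (adjusted p = 0.817, edgeR). Cdsn, which encodes corneodesmosin, fell by 0.60 on the log2 scale (adjusted p = 0.0103, edgeR), and the antisense gene Ppp1r18os fell by 0.82 (adjusted p = 0.0243, edgeR). On chromosome 1, with a median of -0.021 over 949 tested genes, all 10 of the nearest tested genes around Ddr2 were called, 5 higher and 5 lower in AS podocytes, against the same 40.1% of all genes. Rgs4 and Rgs5, regulators of G protein signalling that lie side by side, moved in opposite directions (log2 fold change -1.06 and 1.61, adjusted p = 0.00141 and 0.000129, edgeR). Uap1, next to Ddr2 and an enzyme of UDP-N-acetylglucosamine synthesis, rose by 0.41 (adjusted p = 0.000378, edgeR), and Olfml2b rose by 2.00 (adjusted p = 8.2e-05, edgeR). Ddr2 was thus the one gene of this stretch of 11 that did not pass the test, with an interval wider than those of most of its neighbours.

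**Figure D4:**
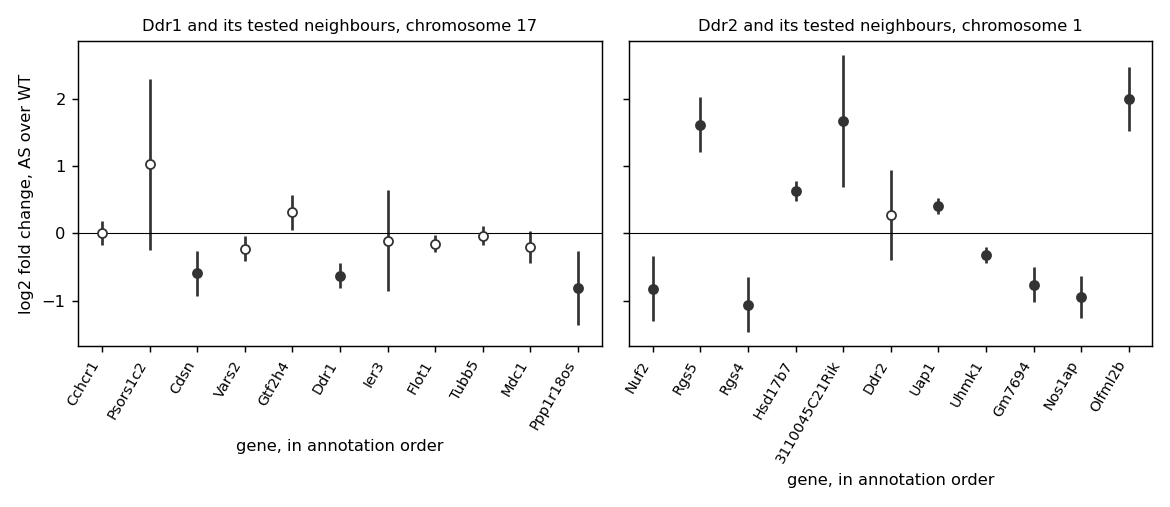
Log2 fold change of AS over WT with its 95% interval for Ddr1 (left) and Ddr2 (right) and the 5 tested genes on either side, in annotation order. Filled points passed an adjusted p of 0.05 in edgeR's quasi-likelihood test. Around Ddr1 2 of 10 neighbours passed, and around Ddr2 all 10 did, 5 in each direction.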

How the data were processed

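RNA-seq of 3 WT and 3 AS podocyte libraries was analysed. The table deposited by the authors holds raw counts for each Ensembl gene in whole numbers. The submitters' processing notes name FastQC, Trim Galore, STAR, edgeR and the mm39 build; which tool counted the reads is not given in the sources used here. Both lines' mRNA libraries were amplified by 15 PCR cycles. Of 57132 identifiers 51880 matched GENCODE M21 (GRCm38) after the version was removed, so the annotation gave names, order and exon lengths, and no coordinates are printed.

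The analysis used edgeR 4.0.16 under R 4.3.3: filterByExpr (minimum count 10, minimum total count 15), TMM, and the two-sided quasi-likelihood test for genotype, with no further term, fitted on all 16263 genes with Benjamini-Hochberg adjustment at 0.05. Standard errors are the log2 fold change over the square root of F. The test was checked on simulated data. DESeq2 1.42.0 and limma 3.58.1 (voom, the test the study names) served as alternatives. Correlations used log2(CPM + 0.5). Total counts were 45417221 to 54290968 per library. Counting intervals leave out PCR duplication, as the sources name no molecular identifiers.

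The members and the 12 gene lists were chosen with earlier results of these data known. Genes named were Ddr1, Ddr2, Col4a3, Cd36, for each list of ligands, receptors and partners the 4 smallest adjusted p and the 2 highest levels, the 5 most abundant kinases and those beside the members, markers at 0 or highest, the 3 closest patterns and 5 neighbours on each side. Protein sequences were not used here.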

Additional observations from a re-analysis of the deposited data

How the results depend on the processing

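Alternatives were DESeq2's size factors, library size only, every gene with at least 1 count, a mean CPM of at least 1, DESeq2, limma-voom, the replicate block, the median of the chromosome subtracted, and each library left out in turn. Ddr1 kept its direction and an adjusted p under 0.05 in the 13 alternatives that gave one, and was -0.63 with the chromosome median subtracted. It lay at -0.68 to -0.56 with 1 library left out (adjusted p at most 0.00236, edgeR). Ddr2 passed the threshold in none of them, and ran from -0.031 without WT replicate 1, the only reversal, to 0.46 without WT replicate 3. The difference in the log2 ratio of Ddr1 to Ddr2 kept its sign throughout, at -1.21 (WT replicate 3 left out) to -0.52 (WT replicate 1 left out). The number of genes called ran from 5120 to 7066 around the main 6517, and the counts of called genes in the 7 lists stayed within 1.5 times their main values. With the longest transcript in place of all exons, the per-length ratio was 1037 in WT and 483 in AS podocytes.

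Deviations from the group means correlated at 0.0526 to 0.147 for libraries of the same set number and at -0.13 to 0.0571 for different numbers. The same-number values were all positive but small, and the set numbers were not taken to pair the libraries. With the replicate block the log2 fold change was -0.63 for Ddr1 (adjusted p = 7.28e-05, edgeR) and 0.31 for Ddr2 (adjusted p = 0.303, edgeR), 7066 genes were called, and the ratio differed by -0.97 (exact permutation of signs, p = 0.25, the smallest that 3 pairs can give). Depth limits Ddr2, with 55 to 144 counts a library, and Cd36.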
